A study of Mus musculus with 10 samples.

Results

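Messenger RNA levels of 36 genes of antioxidant defence were examined in mouse colon: the regulators Nfe2l2 and Keap1, the genes of glutathione supply, the glutathione peroxidases, the peroxiredoxins with sulfiredoxin, the thioredoxins with their reductases and the glutaredoxins, the superoxide dismutases with catalase, and the genes of quinone, haem and iron handling. The genes were chosen by name and not by their measured values, and all 36 were present among the 18398 genes of the deposited table. Of these, 35 had a mean of at least 1 FPKM (fragments per kilobase of transcript, scaled to sequencing depth) over the 10 libraries and entered the test. The remaining gene, Slc7a11, is described by its values. Colon of wild-type mice was compared between 5 libraries from a normal diet, which serve as the controls, and 5 libraries from a diet labelled pro-inflammatory. All 10 libraries share the wild-type genotype. Strain, age, diet composition and feeding time are not stated in the labels used here. The series title speaks of colitis, but no sample label says that colitis was induced. The labels do not say that the libraries came from separate animals, so the p-values measure only the spread between these libraries, which may be technical.

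The transcription factor NRF2, encoded by Nfe2l2, is held at low levels by KEAP1, which senses oxidants and electrophiles and directs NRF2 to degradation. When KEAP1 is modified, NRF2 accumulates and binds antioxidant response elements near genes for glutathione synthesis, thioredoxin reduction, quinone reduction and iron storage. Glutathione and thioredoxin are parallel reducing systems, both fed by NADPH. Glutathione serves the glutaredoxins and most of the glutathione peroxidases, and thioredoxin serves most of the peroxiredoxins. In the colon, the epithelium carries a strong peroxide defence, of which the epithelial peroxidase GPX2 is the best known member.

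The libraries held 15652783 to 18341956 reads on genes, as whole reads recovered from the FPKM values. Epithelial markers were high in every library, with a summed level of 5313 to 10432 FPKM over 12 genes. Pro-inflammatory diet libraries 2 and 5 stood apart from the others. They held 0.417 and 20.9 FPKM of the distal colon gene Hoxb13, against 211 to 341 FPKM in the other 8 libraries. In normal diet libraries 1, 2 and 3 the clock output gene Dbp lay at 1.79 to 6.69 FPKM, against 12.4 to 54.3 FPKM in the others. The liver gene Alb lay at 97.3 and 100.4 FPKM in pro-inflammatory diet libraries 1 and 3, and at 8.45 FPKM or less in the others. These are whole-tissue values, in which fewer cells of a type and less RNA per cell cannot be told apart.

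The genes covered a wide range of levels, which FPKM sets per transcript length and so allows to be compared between genes. Fth1, the heavy ferritin chain, was the most abundant, with 1493 ± 43.5 against 1555 ± 125 FPKM, normal diet given before pro-inflammatory diet (mean ± SD, n = 5 libraries each, as for all such values). Prdx6 with 901 ± 257 against 785 ± 609.6 FPKM, Ftl1 with 764 ± 38 against 895 ± 59.1 FPKM and Txn1 with 567 ± 25 against 553 ± 97.7 FPKM followed. Because the spread of Prdx6 covers the mean of Ftl1 on either diet, these 2 neighbours do not differ beyond their spread. Txn1 lay below Ftl1 and above Sod1 in each of the 10 libraries. Next came Sod1, Prdx1, Gpx2 and Gpx1, of which Gpx2 and Gpx1 overlap in their ranges on both diets. At the other end, Slc7a11 was lowest, followed by Gpx7 with 1.90 ± 0.541 against 2.17 ± 0.675 FPKM, Hmox1 with 3.94 ± 1.60 against 3.45 ± 0.347 FPKM and Txnrd3 with 4.29 ± 0.490 against 4.80 ± 0.755 FPKM. The plot of levels by library shows this order. In GENCODE M21, 8 of the 36 genes share exon bases with another gene: Ftl1, Gclm, Gss, Hmox2, Keap1, Prdx2, Prdx5 and Txnrd2. For Keap1, 10.9% of its exon bases overlap an antisense transcript, and for Hmox2, 40.2% overlap Cdip1 on the opposite strand. Since the labels do not state that counting used the strand, the reads of such pairs cannot be told apart with certainty.

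**Figure D1:**
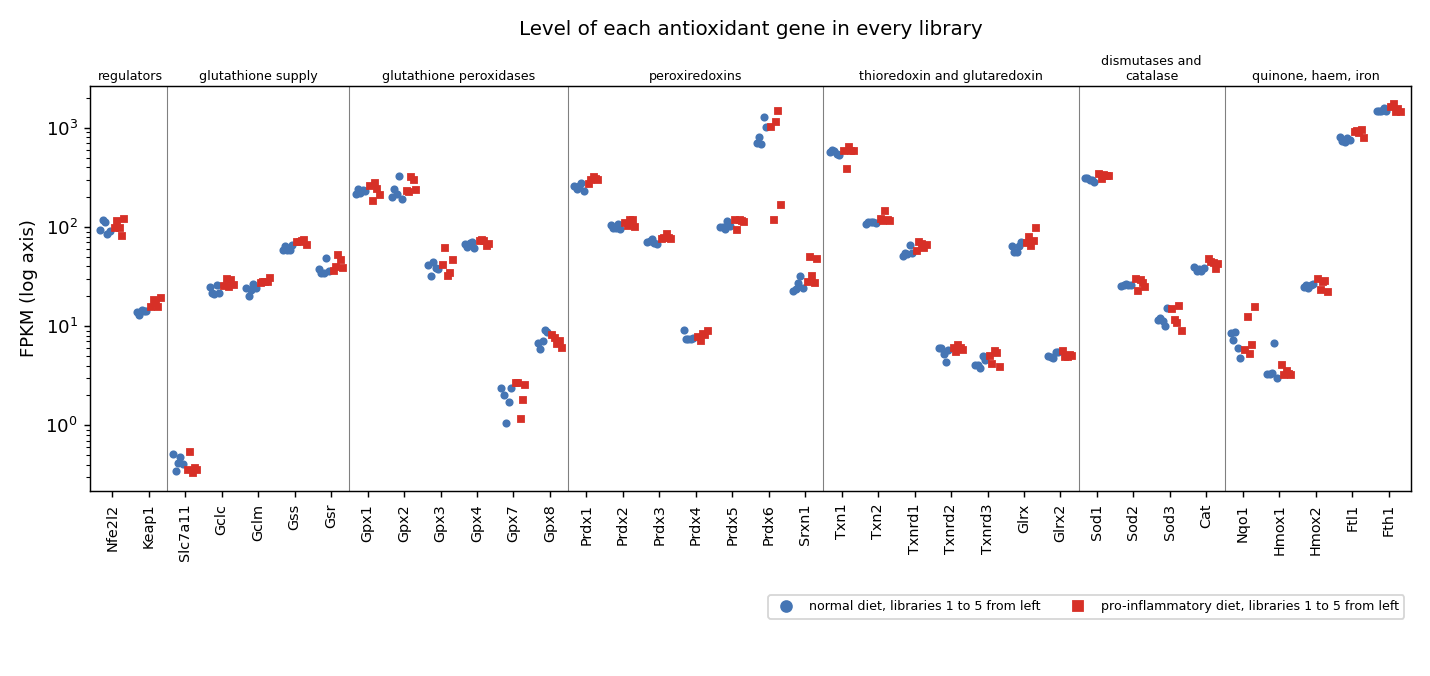
FPKM of the 36 genes in each of the 10 libraries, on a log axis, with 1 point per library normal diet in blue circles and pro-inflammatory diet in red squares. Fth1 is highest, with 1436 to 1738 FPKM, Slc7a11 lies below 1 FPKM, and Prdx6 spans a 12.6-fold range between libraries.

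The comparison of the 2 diets asked which of these genes differ between the colon libraries of each diet. Most of the genes had a somewhat higher mean on the pro-inflammatory diet, with small differences, and none passed correction over all genes. Of the 35 genes tested, 30 had a log2 fold change above 0, where 47.1% of all 12345 genes tested did. All fold changes are differences of log2(FPKM + 1), pro-inflammatory minus normal, and so understate changes of low genes. In counts of genes, a higher mean is a mean of log2(FPKM + 1), so a log2 fold change above 0. For cell type markers it is a mean FPKM. The median over the 35 genes was 0.13, beside -0.01 over all genes tested, and the middle 50% of the genes lay between 0.04 and 0.21. By limma's unadjusted p under 0.05, 12 of the 35 genes were higher, where 8.16% of all genes tested were higher by the same rule. None of the 35 was lower by that rule, where 9.25% of all genes tested were lower. In 4 genes, Keap1, Gclm, Gss and Txn2, all 5 values on the pro-inflammatory diet lay above all 5 on the normal diet, where 1.77% of all genes tested showed this. No gene showed the opposite, where 2.07% of all genes tested did. After Benjamini-Hochberg adjustment over all genes, 0 of the 35 genes and 0 of the 12345 genes (0%) passed 0.05 in limma, and voom on the recovered reads also passed 0. Voom placed 12 of the 35 genes higher at an unadjusted p under 0.05, where 7.65% of all genes tested were. The smallest adjusted p among the 35 was 0.166, for Keap1.

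The median over the 35 genes was 0.06 in place of 0.13 with a length trend removed from the log2 values of each library. It was 0.077 with quantile normalization and 0.074 without pro-inflammatory diet libraries 1 and 3. The genes' transcripts are short, with a median length 0.489 times that of all genes tested. Other settings moved the count at an unadjusted p under 0.05 more than the median. With the balance of muscle and epithelial markers as a covariate, 4 genes were higher by that rule, where 4.63% of all genes tested were, while the median was 0.12 and 31 genes had a higher mean. With distal colon and clock covariates, 7 genes were, where 4.67% of all genes tested were, with a median of 0.16 and 26 genes higher. Without normal diet libraries 1, 2 and 3, which leaves 2 normal diet libraries, 2 genes were, where 1.81% of all genes tested were, with a median of 0.11 and 27 genes higher. With the distal colon and clock covariates, and also without normal diet libraries 1, 2 and 3, 1 gene was lower by that rule. The share of all genes tested that were lower in these settings is not given here.

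**Figure D2:**
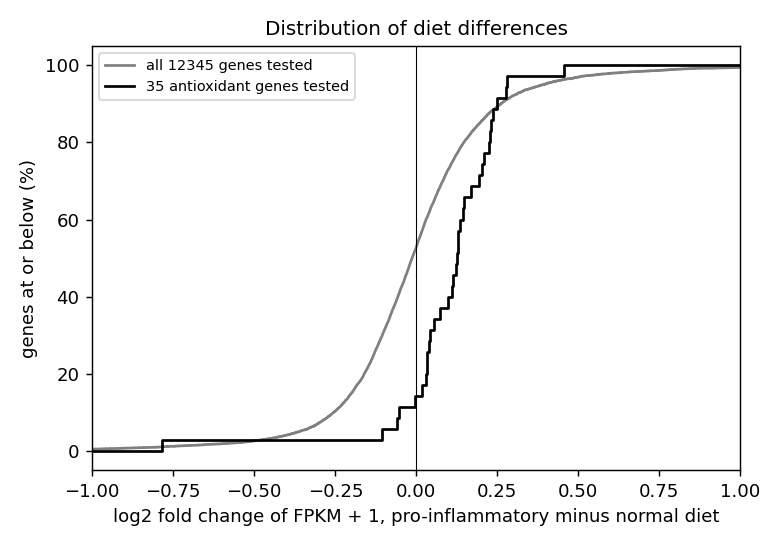
Cumulative share of genes (percent, y axis) at or below each log2 fold change (x axis, pro-inflammatory minus normal diet), for the 35 genes tested and for all 12345 genes tested. The curve of the 35 genes lies to the right, with a median of 0.13 against -0.01, and 1 gene, Prdx6, lies far to the left at -0.78.

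Promoter letters were read from RefSeq for the genes listed there. Of the 35 genes tested, 12 are on the list of known NRF2 targets. They include 6 of the 12 genes with the smallest p, a ranking from these same data. The motif searched was TGACNNNGC, the core of the antioxidant response element, and GCNNNGTCA on the other strand, in windows of 250 bases before to 50 bases after each gene's start. Of the 36 genes, 31 were in the RefSeq table. 6 of these, Gclm, Nfe2l2, Prdx1, Sod1, Srxn1 and Txnrd1, held a match in some window, which is 19.4%, against 14% of all 27025 gene symbols. By window, 6 of the genes' 43 windows held a match, which is 14%, against 12.4% of all 32851 windows. Of the genes at an unadjusted p under 0.05 that were in the table, 5 of 11 held a match, and of the others 1 of 20 did. This split follows p-values from these same data, and whether the 2 shares differ was not tested. It also overlaps the list of known NRF2 targets, of which 4 of the 10 in the table held a match. The stretches around the match in 4 of the 5 genes are given on GRCm38.p6, 5′ to 3′ on the gene's strand, with the match in capitals, so that the letters can be read beside the values of these genes.
Gclm chr3:122245363-122245466 (+): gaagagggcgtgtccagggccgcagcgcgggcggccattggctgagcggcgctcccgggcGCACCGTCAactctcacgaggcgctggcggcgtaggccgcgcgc
Prdx1 chr4:116685406-116685509 (+): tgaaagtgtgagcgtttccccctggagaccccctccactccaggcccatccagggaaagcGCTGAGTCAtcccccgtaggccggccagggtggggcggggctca
Txnrd1 chr10:82859054-82859157 (+): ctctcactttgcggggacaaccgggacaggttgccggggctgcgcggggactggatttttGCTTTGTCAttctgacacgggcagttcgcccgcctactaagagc
Sod1 chr16:90220646-90220749 (+): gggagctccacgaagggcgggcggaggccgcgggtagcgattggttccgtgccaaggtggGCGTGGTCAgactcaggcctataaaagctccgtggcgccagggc
Counted with -1 as the base before the start, the match lies at -134 to -126 in Gclm, -133 to -125 in Prdx1, -92 to -84 in Txnrd1 and -56 to -48 in Sod1. In GENCODE M21, the Gclm, Prdx1 and Sod1 stretches overlap no gene, and the Txnrd1 stretch lies in an intron of the longer Txnrd1 transcripts. In Srxn1, which is not shown, the match lies 29 to 37 bases after the start. The stretches shown are all from genes at an unadjusted p under 0.05. In Nfe2l2, also not shown, with limma's unadjusted p of 0.817, the match lies at -240 to -232. A match is a description of the letters, and no binding was measured.

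Of the 2 regulators, Keap1 had the smallest p of the 35 genes, while the values of Nfe2l2 were spread alike over both diets. Keap1 (chr9:21229730-21239361 on GRCm38, as all gene positions here), the NRF2 sensor and repressor, was at 13.8, 13, 14.4, 14.1 and 14.4 FPKM in normal diet libraries 1 to 5 and 15.4, 18.3, 17.2, 15.7 and 19 FPKM in pro-inflammatory diet libraries 1 to 5. All values on the pro-inflammatory diet were higher than all on the normal diet, with libraries 2 and 5 highest. The means were 13.9 ± 0.561 against 17.1 ± 1.56 FPKM, a log2 fold change of 0.28 (SE 0.07, 95% interval 0.13 to 0.42, unadjusted p = 0.00174, limma adjusted p = 0.166). When pro-inflammatory diet libraries 2 and 5 were left out, Keap1 had a log2 fold change of 0.20. Nfe2l2 (chr2:75675513-75704641), which encodes NRF2, was at 92.3, 119, 113, 84.9 and 90.9 FPKM in normal diet libraries 1 to 5 and 97.3, 116, 97, 80.9 and 120.4 FPKM in pro-inflammatory diet libraries 1 to 5. Its groups overlapped almost wholly, with the highest and the lowest values spread over both diets. For Nfe2l2, limma gave a log2 fold change of 0.03 (SE 0.13, 95% interval -0.25 to 0.31, unadjusted p = 0.817, limma adjusted p = 0.914). NRF2 is controlled mainly as a protein, which was not measured here.

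Glutathione is made from cysteine in 2 steps and recycled by its reductase. The 4 genes of this group that were tested all had a higher mean on the pro-inflammatory diet, where 47.1% of all genes tested did. Their median log2 fold change was 0.22, and 3 were higher at an unadjusted p under 0.05, where 8.16% of all genes tested were. Gclm (chr3:122245557-122270732), the modifier subunit of glutamate-cysteine ligase, which sets the rate of glutathione synthesis, was at 24.2, 20.1, 22.9, 26.8 and 24.3 FPKM in normal diet libraries 1 to 5 and 27.4, 27.6, 28, 27.6 and 30.4 FPKM in pro-inflammatory diet libraries 1 to 5. The groups did not overlap, although normal diet library 4 came within 1 FPKM of the lowest value on the other diet. In limma, Gclm had a log2 fold change of 0.25 (SE 0.07, 95% interval 0.09 to 0.41, unadjusted p = 0.00614, limma adjusted p = 0.175). Gclc (chr9:77754535-77794485), the catalytic subunit, was at 24.9, 21.4, 21.3, 26 and 21.3 FPKM on the normal diet and 25.4, 29.7, 24.9, 29.2 and 26.2 FPKM on the pro-inflammatory diet. The lowest 2 values of the pro-inflammatory diet lay within the normal range, and the other 3 lay above it. For Gclc, limma gave a log2 fold change of 0.23 (SE 0.08, 95% interval 0.05 to 0.40, unadjusted p = 0.0155, limma adjusted p = 0.205). Gss (chr2:155563181-155592810), glutathione synthetase, which adds glycine in the last step, was at 58.3, 64.7, 58.1, 58.4 and 65.7 FPKM on the normal diet and 70.5, 70.1, 71.4, 73.3 and 66.5 FPKM on the pro-inflammatory diet. Its groups did not overlap, and library 5 of each diet lay closest to the other diet. In limma, Gss had a log2 fold change of 0.20 (SE 0.06, 95% interval 0.08 to 0.33, unadjusted p = 0.00407, limma adjusted p = 0.173). Gsr, glutathione reductase, which restores reduced glutathione, was at 38.2 ± 5.75 against 42.5 ± 6.53 FPKM with a log2 fold change of 0.15 and overlapping groups. Slc7a11, the cystine importer, was listed at 0.508, 0.348, 0.419, 0.474 and 0.409 FPKM on the normal diet and 0.356, 0.538, 0.332, 0.369 and 0.357 FPKM on the pro-inflammatory diet. These values rest on 51 to 88 reads per library, and the highest and lowest value were both on the pro-inflammatory diet.

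Most of the glutathione peroxidases reduce peroxides with glutathione. Of 6 genes, 5 had a higher mean, where 47.1% of all genes tested did, and the median log2 fold change was 0.10. None had an unadjusted p under 0.05, which with 6 genes is near the 8.16% higher and 9.25% lower over all genes tested. Gpx2, the peroxidase of the gut epithelium, was at 201, 239.7, 217, 323 and 191 FPKM on the normal diet and 231, 226, 323, 295 and 234 FPKM on the pro-inflammatory diet. Normal diet library 4 and pro-inflammatory diet library 3 were highest and level with each other, so the ranges overlapped. For Gpx2, limma gave a log2 fold change of 0.17 (SE 0.16, 95% interval -0.17 to 0.51, unadjusted p = 0.299, limma adjusted p = 0.561), which was 0.29 without normal diet library 4 and 0.09 without pro-inflammatory diet library 3. Gpx1, the widespread cytosolic peroxidase, was at 229 ± 10.8 against 234 ± 37.2 FPKM, with its 2 lowest values in pro-inflammatory diet libraries 2 and 5. Gpx4, which reduces lipid peroxides in membranes, was at 66.5 ± 3.75 against 69.9 ± 3.86 FPKM with a log2 fold change of 0.07. Gpx3, the secreted plasma form, was at 38.6 ± 4.46 against 43.2 ± 11.9 FPKM, with the 2 highest values in pro-inflammatory diet libraries 2 and 5. The 2 endoplasmic reticulum members were low. Gpx7 was at 1.90 ± 0.541 against 2.17 ± 0.675 FPKM, resting on as few as 23 reads, and Gpx8 was at 7.49 ± 1.33 against 7.11 ± 0.862 FPKM with a log2 fold change of -0.06. Gpx1 and Gpx2 together made up 73.8 to 84.1% of the summed FPKM of the 6 genes, a sum of 578 ± 60.2 against 618 ± 62.7 FPKM.

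The peroxiredoxins reduce peroxides through a reactive cysteine, and sulfiredoxin repairs that cysteine after overoxidation. Of these 7 genes, 6 had a higher mean on the pro-inflammatory diet, where 47.1% of all genes tested did. The median log2 fold change was 0.11, and 3 were higher at an unadjusted p under 0.05, where 8.16% of all genes tested were. Prdx1 (chr4:116685544-116700822), the main cytosolic form, was at 259, 244, 259, 281 and 232 FPKM in normal diet libraries 1 to 5 and 272, 299, 318, 305 and 300.2 FPKM in pro-inflammatory diet libraries 1 to 5. Pro-inflammatory diet library 1 lay below the highest normal value, and the other 4 lay above it. In limma, Prdx1 had a log2 fold change of 0.23 (SE 0.07, 95% interval 0.08 to 0.38, unadjusted p = 0.00618, limma adjusted p = 0.175). Prdx3 (chr19:60864051-60874556), the mitochondrial form, was at 71.1, 72.9, 76.2, 69.3 and 67 FPKM on the normal diet and 76.1, 78, 84.7, 77.1 and 75.9 FPKM on the pro-inflammatory diet. Its groups overlapped only through normal diet library 3, which was level with the lowest values of the other diet, and pro-inflammatory diet library 3 was highest. For Prdx3, limma gave a log2 fold change of 0.13 (SE 0.05, 95% interval 0.01 to 0.25, unadjusted p = 0.0309, limma adjusted p = 0.247). Prdx2, a cytosolic form abundant in red cells, was at 100.3 ± 5.67 against 109 ± 8.35 FPKM, Prdx5, found in mitochondria and peroxisomes, at 103 ± 7.05 against 111 ± 10.5 FPKM, and Prdx4, the endoplasmic reticulum form, at 7.77 ± 0.789 against 8.03 ± 0.733 FPKM. Their log2 fold changes were 0.11, 0.11 and 0.04, with overlapping groups.

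2 genes of this family followed individual libraries. Prdx6 (chr1:161240112-161251219), which also acts on phospholipid peroxides, was at 698, 802, 693, 1295 and 1017 FPKM in normal diet libraries 1 to 5 and 1029, 117, 1143, 1469 and 166 FPKM in pro-inflammatory diet libraries 1 to 5. Pro-inflammatory diet libraries 2 and 5, the libraries low in Hoxb13, held 117 and 166 FPKM, and the other 8 held 693 FPKM or more. In limma, Prdx6 had a log2 fold change of -0.78 (SE 0.69, 95% interval -2.32 to 0.75, unadjusted p = 0.282, limma adjusted p = 0.549), and leaving out these 2 libraries gave 0.46 (SE 0.21, limma adjusted p = 0.34). Prdx6b, a close relative in the table, was listed at 0 in 9 libraries and at 0.0196 FPKM in the other. Srxn1 (chr2:152105516-152111376), sulfiredoxin, was at 22.5, 23.7, 27.1, 32.2 and 24.2 FPKM in normal diet libraries 1 to 5 and 27.7, 49.7, 31.8, 27.4 and 47.9 FPKM in pro-inflammatory diet libraries 1 to 5. The same 2 libraries were highest, and the other 3 of the diet lay within the normal range of 22.5 to 32.2 FPKM. For Srxn1, limma gave a log2 fold change of 0.46 (SE 0.18, 95% interval 0.05 to 0.86, unadjusted p = 0.0314, limma adjusted p = 0.247), and without these 2 libraries it was 0.16 (SE 0.12, limma adjusted p = 0.504). With the levels of distal colon and clock genes as covariates, the log2 fold change was 0.42 for Prdx6 and -0.041 for Srxn1. Prdx6 made up 56.2 to 70.2% of the summed peroxiredoxin FPKM in 8 libraries and 16.8 and 21.7% in pro-inflammatory diet libraries 2 and 5. Without Prdx6, the other 5 peroxiredoxins summed to 537 ± 27.9 FPKM on the normal and 605 ± 27.9 FPKM on the pro-inflammatory diet. In the 5 libraries of each diet this sum ranged from 505 to 579 FPKM and from 578 to 645 FPKM, so the groups met at their ends.

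The thioredoxin group holds the thioredoxins, small carriers of reducing power, their NADPH-dependent reductases, and the glutaredoxins, which use glutathione instead. Of 7 genes, 5 had a higher mean, where 47.1% of all genes tested did. The median log2 fold change was 0.13, and 2 were higher at an unadjusted p under 0.05, where 8.16% of all genes tested were. Txnrd1 (chr10:82833951-82897712), the cytosolic thioredoxin reductase and a selenoprotein, was at 51.2, 54.5, 53.3, 65 and 54.7 FPKM in normal diet libraries 1 to 5 and 57.5, 70.7, 66.9, 61.6 and 65.7 FPKM in pro-inflammatory diet libraries 1 to 5. Normal diet library 4 lay among the pro-inflammatory values, and the other 4 normal libraries lay below all of them. In limma, Txnrd1 had a log2 fold change of 0.21 (SE 0.08, 95% interval 0.04 to 0.38, unadjusted p = 0.0224, limma adjusted p = 0.222). Glrx (chr13:75839868-75850154), the cytosolic glutaredoxin, was at 64.3, 56, 55.9, 64.8 and 71.3 FPKM on the normal diet and 69.4, 78.5, 64.7, 72.9 and 97.1 FPKM on the pro-inflammatory diet. Pro-inflammatory diet libraries 5 and 2 were highest, and the ranges overlapped. For Glrx, limma gave a log2 fold change of 0.28 (SE 0.11, 95% interval 0.03 to 0.53, unadjusted p = 0.0292, limma adjusted p = 0.242), and without pro-inflammatory diet libraries 2 and 5 it was 0.15. Txn2 (chr15:77915047-77929006), the mitochondrial thioredoxin, was at 107, 112, 112, 113 and 109 FPKM on the normal diet and 121, 115, 146, 118 and 114 FPKM on the pro-inflammatory diet. The groups did not overlap, but pro-inflammatory diet library 3 stood far above the rest and the lowest 2 values of that diet came within 3 FPKM of the highest normal value. In limma, Txn2 had a log2 fold change of 0.14 (SE 0.07, 95% interval -0.01 to 0.30, unadjusted p = 0.0659, limma adjusted p = 0.311), which was 0.081 without that library. Txn1 (chr4:57943373-57956411), the cytosolic thioredoxin, was at 574, 593, 585, 544 and 537 FPKM on the normal diet and 583, 383, 634, 588 and 579 FPKM on the pro-inflammatory diet. Pro-inflammatory diet library 2 alone lay far below the other 9, which ranged from 537 to 634 FPKM. For Txn1, limma gave a log2 fold change of -0.05 (SE 0.12, 95% interval -0.33 to 0.22, unadjusted p = 0.674, limma adjusted p = 0.833), and without that library it was 0.07. Txnrd2, the mitochondrial reductase, was at 5.47 ± 0.680 against 5.90 ± 0.355 FPKM, Txnrd3, the form enriched in testis, at 4.29 ± 0.490 against 4.80 ± 0.755 FPKM, and Glrx2, the mitochondrial glutaredoxin, at 5.11 ± 0.334 against 5.09 ± 0.305 FPKM. The 3 had log2 fold changes of 0.10, 0.13 and -0.0040 with overlapping groups.

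Superoxide dismutases turn superoxide into hydrogen peroxide, which catalase breaks down. All 4 genes had a higher mean on the pro-inflammatory diet, where 47.1% of all genes tested did. The median log2 fold change was 0.08, and 2 were higher at an unadjusted p under 0.05, where 8.16% of all genes tested were. Sod1 (chr16:90220754-90226329), the cytosolic copper-zinc enzyme, was at 309, 313, 296, 295 and 283 FPKM on the normal diet and 343, 306, 337, 324 and 327 FPKM on the pro-inflammatory diet. Pro-inflammatory diet library 2 lay within the normal range, and the other 4 lay above it. In limma, Sod1 had a log2 fold change of 0.13 (SE 0.05, 95% interval 0.01 to 0.25, unadjusted p = 0.0378, limma adjusted p = 0.261). Cat (chr2:103453849-103485160), the peroxisomal catalase, was at 39.1, 35.6, 37.5, 36.3 and 38.4 FPKM on the normal diet and 47.6, 43.9, 43.2, 37.9 and 42.3 FPKM on the pro-inflammatory diet. Here library 4 of the pro-inflammatory diet lay within the normal range, and the other 4 lay above it. For Cat, limma gave a log2 fold change of 0.19 (SE 0.06, 95% interval 0.05 to 0.33, unadjusted p = 0.0115, limma adjusted p = 0.193). Sod2, the mitochondrial manganese enzyme, was at 26.1 ± 0.510 against 26.8 ± 3.20 FPKM, with a log2 fold change of 0.03. Its normal values were tightly grouped, and pro-inflammatory diet libraries 2 and 5 were the lowest 2 of all 10. Sod3, the extracellular form, was at 12 ± 1.92 against 12.4 ± 2.88 FPKM. Sod1 made up 87.3 to 90.7% of the summed dismutase FPKM.

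The last group handles quinones, haem and iron, and includes the genes most often read as NRF2 reporters. Of 5 genes, 4 had a higher mean, where 47.1% of all genes tested did. The median log2 fold change was 0.06, and 1 was higher at an unadjusted p under 0.05, where 8.16% of all genes tested were. Ftl1 (chr7:45457944-45459884), the light ferritin chain, was at 811, 741, 720.1, 796 and 754 FPKM in normal diet libraries 1 to 5 and 914, 929.6, 896, 941 and 793 FPKM in pro-inflammatory diet libraries 1 to 5. Normal diet libraries 1 and 4 lay above pro-inflammatory diet library 5, and the other 4 libraries of the pro-inflammatory diet lay above all normal values. In limma, Ftl1 had a log2 fold change of 0.23 (SE 0.07, 95% interval 0.08 to 0.38, unadjusted p = 0.0072, limma adjusted p = 0.18). Fth1 (chr19:9980598-9985098), the heavy chain, which oxidises iron for storage, was at 1467, 1474, 1485, 1569.7 and 1469 FPKM on the normal diet and 1615, 1738, 1436, 1537 and 1451 FPKM on the pro-inflammatory diet. Its groups overlapped, and limma gave a log2 fold change of 0.06 (SE 0.07, 95% interval -0.10 to 0.21, unadjusted p = 0.446, limma adjusted p = 0.681). Ferritin genes have near-identical processed pseudogenes in the mouse genome, so their counts are uncertain where reads were shared. Nqo1 (chr8:107388225-107403206), the quinone reductase often used to read NRF2 activity, was at 8.53, 7.26, 8.69, 5.96 and 4.73 FPKM in normal diet libraries 1 to 5 and 5.72, 12.4, 5.22, 6.48 and 15.4 FPKM in pro-inflammatory diet libraries 1 to 5. Pro-inflammatory diet libraries 2 and 5 were highest, and the other 3 of that diet lay within the normal range of 4.73 to 8.69 FPKM. For Nqo1, limma gave a log2 fold change of 0.24 (SE 0.28, 95% interval -0.39 to 0.86, unadjusted p = 0.419, limma adjusted p = 0.664), and without these 2 libraries it was -0.21. Hmox1 (chr8:75093621-75100589), the inducible haem oxygenase, was at 3.28, 3.32, 3.33, 6.80 and 2.98 FPKM on the normal diet and 4.01, 3.19, 3.56, 3.29 and 3.19 FPKM on the pro-inflammatory diet. Normal diet library 4 was highest, and without it the log2 fold change was 0.07 in place of -0.11. With that library included, the 95% interval ran from -0.48 to 0.27 (unadjusted p = 0.544, limma adjusted p = 0.75). Hmox2, the constitutive form, was at 25.5 ± 0.892 against 26.4 ± 3.56 FPKM.

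**Figure D3:**
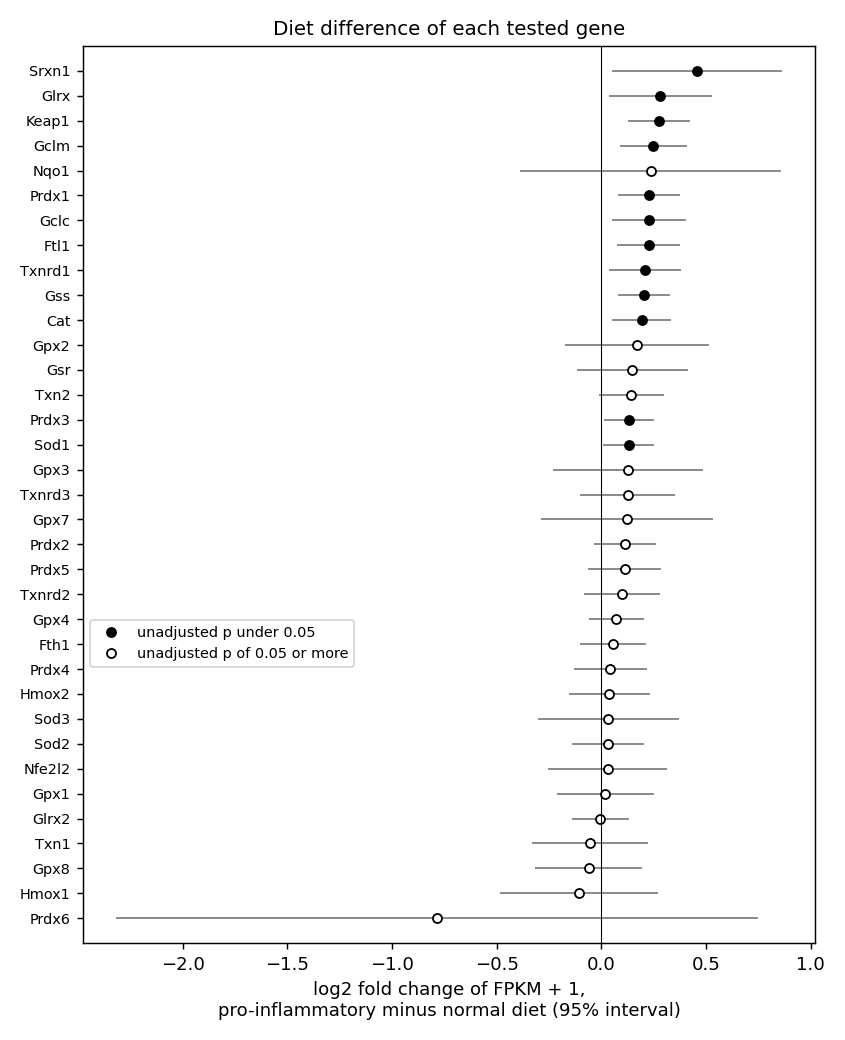
Log2 fold change of each of the 35 genes tested (x axis, pro-inflammatory minus normal diet), with limma's 95% interval, ordered by fold change. 30 of the points lie above 0, and Prdx6 has the widest interval, from -2.32 to 0.75.

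Grouped across roles, the 12 tested genes known as NRF2 targets had a median log2 fold change of 0.22, 10 of them had a higher mean, and 6 had an unadjusted p under 0.05. The 6 were Gclc, Gclm, Prdx1, Srxn1, Txnrd1 and Ftl1. The list of targets was chosen with earlier results of these data known and may be incomplete. Prdx6, with a log2 fold change of -0.78, is not on it. The 6 mitochondrial genes had a median of 0.10, with 5 higher means and 1 unadjusted p under 0.05, that of Prdx3. The 5 secreted or endoplasmic reticulum genes had a median of 0.04 and no unadjusted p under 0.05. Over all genes tested, 47.1% had a higher mean, 8.16% were higher at an unadjusted p under 0.05 and 9.25% were lower. Whether these subgroups differ from each other, or from all genes tested, was not tested.

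The libraries did not contribute evenly. Among the 36 genes, pro-inflammatory diet library 3 held the highest value of all 10 libraries in 9 genes, libraries 1 and 2 in 7 each, library 5 in 5 and library 4 in 4. Normal diet libraries 2, 3 and 5 held the highest value in 0 genes and the lowest in 6, 7 and 8. Pro-inflammatory diet library 2 held both extremes, with the lowest value in 6 genes beside the highest in 7. Normal diet library 4 lay above the median of the 10 libraries in 19 genes, against 9 to 11 for the other normal diet libraries. The 2 libraries low in Hoxb13 were both above the other 8 in 5 of the 35 genes, Gpx3, Srxn1, Nqo1, Keap1 and Glrx, where 13.9% of all genes tested showed this. Both lay below the other 8 in 4 genes, Gpx1, Prdx6, Sod2 and Hmox2, where 17.4% of all genes tested did. Both counts are near the share over all genes. Sod2, for example, lay at 22.6 to 24.7 FPKM in these 2 libraries and at 25.4 to 30.1 FPKM in the other 8. The heat map of the libraries and the plot of 6 genes show these values.

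**Figure D4:**
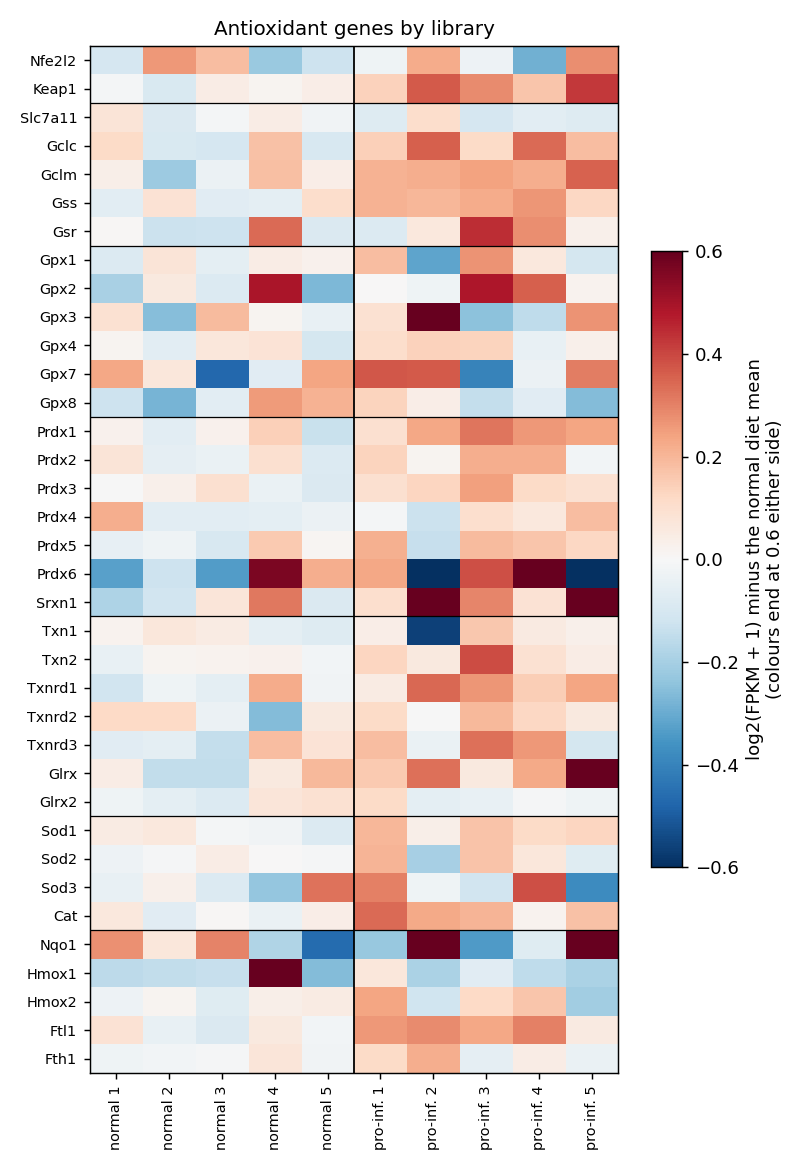
Log2 difference of each gene in each library from the mean of the normal diet libraries, with genes in rows by role, the 10 libraries in columns, and colours that end at 0.6 on either side. Prdx6 is low and Srxn1 and Nqo1 are high in pro-inflammatory diet libraries 2 and 5, and pro-inflammatory diet library 3 is highest of all libraries in 9 genes.

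**Figure D5:**
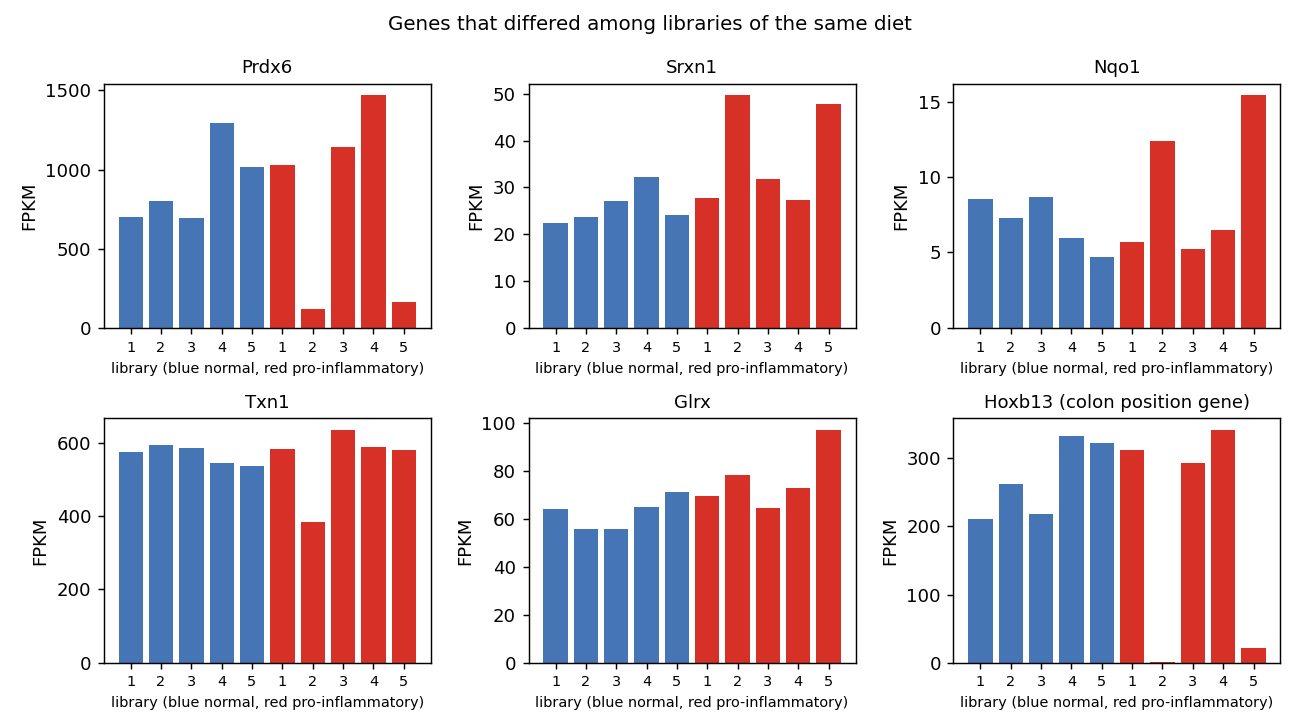
FPKM (y axis, from 0) of Prdx6, Srxn1, Nqo1, Txn1 and Glrx, picked after their values were seen, with 1 bar per library, normal diet in blue and pro-inflammatory diet in red. The position gene Hoxb13 is plotted beside them: libraries 2 and 5 of the pro-inflammatory diet are low in Hoxb13 and Prdx6 (117 and 166 FPKM) and high in Srxn1, Nqo1 and Glrx, and library 2 alone is low in Txn1.

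The ratio of partner genes within a library cancels the scaling of that library, except for the 1 FPKM added to each gene before the ratio. 6 log2 ratios were compared by exact permutation, two-sided, with all 252 ways to assign 5 of the 10 libraries, which allows no p under 0.00794. The light to heavy ferritin ratio, Ftl1/Fth1, was -0.97 ± 0.07 (SD, n = 5) on the normal diet against -0.80 ± 0.10 (SD, n = 5) on the other. The difference was 0.17 with an exact p of 0.0238 and an adjusted p of 0.143 over the 6 ratios, so it did not pass correction. The ratio of the 2 glutamate-cysteine ligase subunits, Gclm/Gclc, differed by 0.02 (exact p = 0.802, adjusted p = 0.802). Keap1/Nfe2l2 differed by 0.25 (exact p = 0.111) and Txnrd1/Txn1 by 0.26 (exact p = 0.159). Keap1/Nfe2l2 differed by 0.16 without normal diet library 2 and by 0.044 without normal diet libraries 1, 2 and 3, and Txnrd1/Txn1 by 0.10 without pro-inflammatory diet library 2. Gpx2/Gpx1 differed by 0.15 (exact p = 0.325), and Sod2/Sod1 by -0.10 (exact p = 0.167). With 1 FPKM added, none of these 4 passed correction over the 6 ratios, with exact tests giving adjusted p of 0.25 or more. With 0.1 FPKM added in place of 1, Keap1/Nfe2l2 differed by 0.26 (exact p = 0.0714, adjusted p = 0.214). With 1 library left out, Gpx2/Gpx1 ran from 0.077 to 0.26 and Sod2/Sod1 from -0.12 to -0.063.

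Outside these 36 genes, 69 further genes of the same pathways were listed, of which 68 were tested and Chac1 lay under the level minimum. Of the 68, 37 had a log2 fold change above 0, 9 were higher at an unadjusted p under 0.05 and 5 were lower. These are 54.4, 13.2 and 7.35% of the 68, beside 47.1, 8.16 and 9.25% of all genes tested. Of the 8 genes of NADPH supply, 7 had a log2 fold change above 0, with a median of 0.24, and 4 were higher at an unadjusted p under 0.05. In 5 of the 8, Pgd, Tkt, Taldo1, Idh1 and Idh2, pro-inflammatory diet libraries 2 and 5 both lay above the other 8 libraries, which is 62.5% against 13.9% of all genes tested; Pgd, Taldo1 and Idh2 are named after their values were seen. Without these 2 libraries the median of the list was 0.15, with 0.39 for Idh1, 0.35 for Tkt, 0.28 for Pgd and 0.16 for Taldo1. Idh1, the cytosolic isocitrate dehydrogenase, was at 66.4 ± 6.51 against 91.5 ± 8.81 FPKM with groups that did not overlap, a log2 fold change of 0.46 (SE 0.09, 95% interval 0.26 to 0.65, unadjusted p = 0.000311, limma adjusted p = 0.151). Tkt, transketolase of the pentose phosphate pathway, was at 82.6 ± 8.90 against 114 ± 14 FPKM, a log2 fold change of 0.45 (SE 0.10, 95% interval 0.23 to 0.67, unadjusted p = 0.000948, limma adjusted p = 0.151). Among the partners and repressors of NRF2, 2 of 10 had a higher mean, and the median was -0.19. At an unadjusted p under 0.05 there were 0 higher and 2 lower genes. Their median length was 1.82 times that of all genes tested, against 0.489 times for the 35 genes. The median of this list with the length trend removed is not given here. Nfe2l1, a relative of NRF2 that governs proteasome genes, was at 55 ± 2.80 against 45.8 ± 3.51 FPKM with groups that did not overlap, a log2 fold change of -0.26 (SE 0.06, 95% interval -0.40 to -0.12, unadjusted p = 0.00208, limma adjusted p = 0.166). Mafk, a small MAF partner of NRF2, was at 10.7 ± 2.78 against 7.63 ± 0.400 FPKM, a log2 fold change of -0.41 (SE 0.13, 95% interval -0.70 to -0.11, unadjusted p = 0.0117, limma adjusted p = 0.193).

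The 4 remaining lists held genes of either direction. Over all genes tested, 47.1% had a higher mean, 8.16% were higher at an unadjusted p under 0.05 and 9.25% were lower. Of 14 thioredoxin partners, 6 had a higher mean, and at an unadjusted p under 0.05 there were 2 higher and 3 lower genes. The leading genes there were Msrb3, a methionine sulfoxide reductase, with a log2 fold change of -0.31 (limma adjusted p = 0.183), and Pdia3, a disulfide isomerase, with 0.20 (limma adjusted p = 0.244). Of 15 other genes of peroxide and quinone defence, 10 had a higher mean and 3 were higher at an unadjusted p under 0.05. Cbr1, a carbonyl reductase, led them with 151 ± 13.7 against 179 ± 21.6 FPKM (log2 fold change 0.24, limma adjusted p = 0.241), followed by Park7, the redox protein DJ-1, with 55.9 ± 3.57 against 61.2 ± 1.68 FPKM (log2 fold change 0.13, limma adjusted p = 0.264). Of 11 genes of glutathione turnover, 4 had a log2 fold change above 0 and 0 passed an unadjusted p of 0.05 in limma in either direction. Glo1, glyoxalase, with 0.13, and Dpep1, a dipeptidase, with 0.61 had the smallest p. Of 10 genes of haem and iron handling, 8 had a log2 fold change above 0 and 0 passed an unadjusted p of 0.05 in limma. Blvra, biliverdin reductase, with 0.14, and Ncoa4, the ferritin receptor of autophagy, with -0.20 had the smallest p.

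Levels of cell type markers also varied between the libraries. No marker list was tested between the 2 diets. Epithelial markers had a higher mean FPKM on the pro-inflammatory diet in 8 of 12 genes, with summed levels of 5313 to 7505 FPKM against 6646 to 10432 FPKM. All 9 smooth muscle markers had a lower mean, with sums of 2764 to 4103 against 2429 to 3308 FPKM, and so did all 6 fibroblast markers, with 314 to 394 against 222 to 330 FPKM. Car1, a carbonic anhydrase, carried the top epithelial sums, with 3568 and 2334 FPKM in pro-inflammatory diet libraries 2 and 5. Without Car1 the sums ran from 5148 to 7013 against 6251 to 7563 FPKM. With the muscle minus epithelium balance as a covariate, the median of the 35 genes was 0.12 and 31 had a higher mean, as given above. Macrophage markers had a higher mean in 9 of 10 genes, with 266 to 374 against 260 to 445 FPKM. T and natural killer cell markers were higher in 8 of 8, with 8.5 to 13.3 against 10.9 to 39.1 FPKM, and B cell markers in 6 of 6, with 19.3 to 45.7 against 28.9 to 83.1 FPKM. The T and natural killer cell sums were 20.8, 39.1 and 29.3 FPKM in pro-inflammatory diet libraries 1, 2 and 5. Libraries 3 and 4 of that diet lay within the normal range, at 11.1 and 10.9 FPKM. Only libraries 1 and 2 of that diet exceeded the normal B cell range. Adipocyte markers were higher in 7 of 7, with 24.9 to 103 against 33.9 to 261 FPKM, and red cell markers in 6 of 7, with 17.3 to 30.3 against 23.6 to 85.4 FPKM. Above the normal range were pro-inflammatory diet libraries 1, 2 and 5 for the adipocyte sum and 1, 3 and 5 for the red cell sum. The others of that diet lay within it. Other lists went both ways: goblet cell markers were higher in 3 of 7, endothelial in 3 of 5 and enteric neuron and glia in 2 of 6. Hepatocyte markers were higher in 3 of 5, and pancreatic acinar markers in 5 of 5, with sums of 1.37 FPKM or less. Of 6 neutrophil markers in the table, 2 were higher. S100a8, S100a9, Mpo, Camp and Cxcr2 were listed at 0 in some libraries, and Ly6g carried the sum. Adipoq, Plin1 and Lep of the adipocyte list and Slc4a1 of the red cell list were at 0 in some libraries. The 10 interferon response genes all had a higher mean, with 75 to 109 against 89.3 to 664 FPKM, the highest sums being 292 and 664 FPKM in libraries 2 and 5 of the pro-inflammatory diet. The part of immune cells, fat, red cells and interferon response in the values of the 36 genes was not tested.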

How the data were processed

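Polyadenylated RNA from colon was sequenced as stranded paired-end libraries, per the labels' protocols. The authors deposited 1 table of FPKM values for 18398 genes in 10 libraries. Build mm10 and the tools HISAT2, Bowtie2, HTSeq, Cufflinks, StringTie, Trimmomatic and DESeq are listed, with no version or role, per the submitters' processing notes. Not given in the sources used here are the use of strand in counting and the handling of reads that near-identical genes share.

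FPKM values were tested as log2(FPKM + 1) with limma 3.58.1 (R 4.3.3, trended empirical Bayes), with diet as the only term, on the 12345 genes with a mean of at least 1 FPKM over all libraries. P-values were adjusted by Benjamini-Hochberg over all of these genes at a threshold of 0.05. Because every FPKM is a whole multiple of the value of 1 read, whole reads were recovered for all 18398 genes within 0.001 read, and voom was run on them as an alternative. A count below 100 reads limits the precision of Slc7a11, Gpx7, Gpx8 and Hmox1. Gene positions are from GENCODE M21 and promoter letters from RefSeq on GRCm38.p6. The scripts were tested on simulated data. Libraries were grouped by their labels.

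Values in every library are given for the 12 genes with the smallest p, for genes whose diets do not overlap, for the most abundant gene of each role, and for Nfe2l2, Keap1, Gclc, Gclm, Nqo1, Hmox1, Slc7a11, Gpx2 and Txnrd1. In the other lists, up to 2 genes with the smallest p are named. Gene sets, lists and the settings varied were chosen with earlier results of these data known. The alternatives varied the pseudocount, the filter, the scaling, library weights, a replicate block, length, covariates and the libraries used. Leaving out pro-inflammatory diet libraries 1 and 3, the NADPH list without libraries 2 and 5 and the epithelial sum without Car1 were added after seeing the data.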

Additional observations from a re-analysis of the deposited data

Results flagged for a closer look

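In 84 sets of 5 libraries, each the values of 1 gene or 1 ratio on 1 diet, the highest or lowest library was compared with the others by the width of its gap, at a limit that chance passes in about 1 in 20 sets. 13 values passed it, where 4.2 would be expected if the sets were independent. The sets share the same libraries, and the ratios reuse the same genes, so whether 13 exceeds chance was not tested. Of the 13, 4 were in normal diet library 4. In that library Gsr stood at 48.2 FPKM, Txnrd1 at 65 FPKM, Hmox1 at 6.80 FPKM and Fth1 at 1570 FPKM, each far above the other 4 normal diet libraries. This library also listed 1179 genes at 0, against 1671 to 2041 in the other 9.

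Pro-inflammatory diet library 2 stood apart from its diet in Txn1, low at 383 FPKM, in Prdx5, low at 92.9 FPKM, in Slc7a11, high at 0.538 FPKM, and in the log2 ratio of Txnrd1 to Txn1, high at -2.42. Pro-inflammatory diet library 3 was far above its diet in Prdx3 at 84.7 FPKM and Txn2 at 146 FPKM. Gclm was highest in pro-inflammatory diet library 5 at 30.4 FPKM, Glrx2 in pro-inflammatory diet library 1 at 5.62 FPKM, and Prdx4 in normal diet library 1 at 9.18 FPKM, each with a wide gap to the rest of its diet.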

How the results depend on the processing

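No gene passed an adjusted p of 0.05 under any of the 25 alternatives, and 26 to 31 of the tested genes had a higher mean. The count of 12 genes higher at an unadjusted p under 0.05 (8.16% of all genes tested) ran from 9 to 11 with each library left out (5.25 to 9.87%). It was 4 with the muscle minus epithelium covariate, 7 with distal colon and clock covariates and 2 without normal diet libraries 1, 2 and 3 (4.63, 4.67 and 1.81%), with medians of 0.12, 0.16 and 0.11 and 31, 26 and 27 genes higher. With distal colon and clock covariates, and also without normal diet libraries 1, 2 and 3, 1 gene was lower at an unadjusted p under 0.05. With library weights the count of genes higher was 17 (10.7%), and leaving out pro-inflammatory diet libraries 2 and 5 gave 15 (8.06%). The median log2 fold change of 0.13 was 0.077 with quantile normalization, 0.062 with the length trend removed and 0.074 when pro-inflammatory diet libraries 1 and 3 were left out. It ran from 0.087 to 0.14 with each library left out. With the replicate number as a block, 10 genes were higher at an unadjusted p under 0.05 (7.07% of all genes tested) and 0 passed adjustment. As deviations from their diet means, the same-numbered libraries correlated at -0.15, -0.14, -0.13, 0.061 and -0.26. Whether the numbers mark pairs cannot be told from these correlations. Of 35 genes, 18 kept their sign under every alternative run, among them 11 of the 12 with an unadjusted p under 0.05, the exception being Srxn1. For the other genes the cause of the change was not tested.

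With median-ratio rescaling, the sign changed to 0.0118 for Glrx2. With quantile normalization, the sign changed to -0.065 for Gpx1, -0.0724 for Fth1, -0.0387 for Nfe2l2 and 0.00728 for Glrx2. With library weights, the sign changed to -0.0481 for Gpx3, 0.12 for Prdx6, 0.0258 for Txn1, -0.0454 for Nqo1, 0.00128 for Hmox1, -0.12 for Nfe2l2 and 0.0164 for Glrx2. With the length trend removed, the sign changed to -0.0525 for Gpx1, -0.00821 for Hmox2, -0.0158 for Fth1 and 0.0374 for Glrx2. With the muscle minus epithelium covariate, the sign changed to -0.0238 for Gpx2, 0.0715 for Gpx8, 0.11 for Prdx6, 0.0487 for Txn1, -0.0803 for Nqo1, -0.23 for Nfe2l2 and 0.082 for Glrx2. With distal colon and clock covariates, the sign changed to -0.23 for Gpx3, -0.0636 for Gpx7, 0.42 for Prdx6, 0.19 for Txn1, -0.0406 for Srxn1, -0.0417 for Nqo1, -0.0179 for Fth1 and -0.028 for Nfe2l2. Without pro-inflammatory diet libraries 2 and 5, the sign changed to -0.10 for Gpx3, -0.0206 for Gpx7, 0.46 for Prdx6, 0.0865 for Txn1, -0.21 for Nqo1, -0.12 for Nfe2l2 and 0.0219 for Glrx2. Without normal diet libraries 1, 2 and 3, the sign changed to -0.014 for Gpx1, 0.0131 for Txn1, -0.00738 for Txnrd3, -0.0126 for Sod3, -0.00324 for Hmox2 and -0.0515 for the ratio Gclm/Gclc. Without pro-inflammatory diet libraries 1 and 3, the sign changed to -0.12 for Gpx1, -0.0688 for Sod2, -0.00574 for Sod3, -0.0544 for Hmox2 and -0.0308 for the ratio Gclm/Gclc. With each library left out in turn, the log2 value ran from -0.0433 to 0.10 for Gpx1, -0.13 to 0.00513 for Gpx8, -0.0545 to 0.14 for Sod3, -0.17 to 0.0706 for Hmox1, -0.0313 to 0.11 for Nfe2l2, -0.0342 to 0.0187 for Glrx2, -0.00916 to 0.0915 for Sod2, -0.0114 to 0.0998 for Hmox2, -0.00887 to 0.22 for Gpx3, -0.11 to 0.0729 for Txn1 and -0.0172 to 0.0597 for the ratio Gclm/Gclc, across 0 in each case. Without crossing 0, leaving out 1 library moved these by over 1.5 times, with the range in brackets: Gsr (0.0731 to 0.23), Gpx2 (0.0905 to 0.29), Gpx4 (0.0466 to 0.10), Gpx7 (0.00453 to 0.25), Prdx4 (0.0063 to 0.0967), Prdx5 (0.0855 to 0.17), Prdx6 (-1.17 to -0.26), Txn2 (0.081 to 0.17), Txnrd2 (0.0324 to 0.13), Txnrd3 (0.0745 to 0.18), Nqo1 (0.0307 to 0.38) and Fth1 (0.015 to 0.0839).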
